A study of Homo sapiens with 4 samples.

Results

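The 45 genes described here belong to the ATF4 pathway, tRNA charging and amino acid supply. They come from 23605 gene symbols measured in LCC9 breast cancer cells. The 45 were chosen by symbol as known members of these pathways, with earlier results of these data known. They comprise 12 regulators and targets of the ATF4 pathway (called regulators below) and 18 cytosolic aminoacyl-tRNA synthetases. The others are 8 enzymes of serine, asparagine and sulfur amino acid metabolism and 7 amino acid transporters. Synthetase symbols are the older ones of the deposited tables (AARS for AARS1). All 45 symbols were listed in all 4 libraries. LCC9 is an established line derived from MCF-7 that grows in the presence of tamoxifen and, per the labels, carries wild-type estrogen receptor alpha. All cells were kept in phenol red-free medium with 5% charcoal-stripped serum, which is poor in estrogen, and received vehicle (DMSO, 2 libraries) or the compound A7 (2 libraries) for 24 h. The labels call A7 a BRCA1 mimetic and give no dose, and its catalogue number differs between sample and series titles, so only the code name is used. The labels do not say whether the replicates were separate cultures, so p-values here reflect only how far these samples differ, and that spread may be technical.

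An aminoacyl-tRNA synthetase joins an amino acid to its tRNA. When amino acids run short, uncharged tRNA activates the kinase GCN2, which phosphorylates the translation factor eIF2alpha. Overall translation then drops, while the mRNA of the transcription factor ATF4 is translated better through its upstream reading frames. ATF4 binds with C/EBP partners to composite elements in promoters and turns on synthetases, amino acid enzymes and transporters. Because ATF4 is controlled largely at translation, its mRNA level does not report the amount of its protein, which was not measured here.

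The ATF4-C/EBP composite element was searched as TGATGNAA on both strands in the RefSeq promoter windows (GRCh38.p14, 250 bases before to 50 after a gene's start). Of the 45 genes, 37 were in the promoter table, and 14 of these (37.8%) held the element, against 1217 of 27305 genes (4.46%) in the whole table. The share was 7 of 14 synthetases, 4 of 6 transporters, 2 of 11 regulators and 1 of 6 enzymes. These genes were chosen as known members of this pathway, so the share describes the set and is no test. The synthetases with the element were AARS, CARS, GARS, IARS, MARS, NARS and TARS, the transporters SLC7A1, SLC3A2, SLC1A5 and SLC38A1, the regulators CHAC1 and CEBPG, and the enzyme ASNS. The following windows of 30 bases show how the element recurs, and the expression values of these genes are given further on. Capitals mark the match, each window reads 5′ to 3′ along the gene's own strand, and TTGCATCA is the element on the opposite strand.
CHAC1 (chr15:40953251-40953280, plus strand): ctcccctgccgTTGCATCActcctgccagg
CEBPG (chr19:33374060-33374089, plus strand): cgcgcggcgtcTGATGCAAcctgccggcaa
AARS (chr16:70289675-70289704, minus strand): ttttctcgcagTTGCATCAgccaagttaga
CARS (chr11:3057407-3057436, minus strand): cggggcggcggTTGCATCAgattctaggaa
GARS (chr7:30594834-30594863, plus strand): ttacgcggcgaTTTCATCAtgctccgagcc
IARS (chr9:92293692-92293721, minus strand): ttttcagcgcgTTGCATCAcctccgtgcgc
MARS (chr12:57488053-57488082, plus strand): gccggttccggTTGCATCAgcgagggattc
TARS (chr5:33440956-33440985, plus strand): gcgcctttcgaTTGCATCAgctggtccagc
SLC1A5 (chr19:46784893-46784922, minus strand): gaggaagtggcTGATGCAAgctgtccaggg
SLC38A1 (chr12:46266502-46266531, minus strand): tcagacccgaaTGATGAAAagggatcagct

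ASNS, the enzyme that makes asparagine, is shown with longer context because its promoter element is the textbook amino acid response site. The stretch just before its start (chr7:97872409-97872528, minus strand) hold the match 68 bases upstream.
ASNS: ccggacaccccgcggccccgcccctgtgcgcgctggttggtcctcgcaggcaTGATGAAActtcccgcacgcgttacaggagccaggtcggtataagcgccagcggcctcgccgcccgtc
The match lay 187 bases upstream of the start in AARS, 209 in CHAC1, 97 in SLC1A5, 42 in CEBPG, 33 in GARS and 13 in IARS, and within 4 bases of it in CARS, MARS, TARS and SLC38A1. The cyclic AMP response element TGACGTCA was in 1 of the 37 promoters, that of PPP1R15A, and in 614 of the 27305 in the table (2.25%). A match is a run of letters and does not show binding, and a window without one says only that these letters are not in it.

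**Figure D1:**
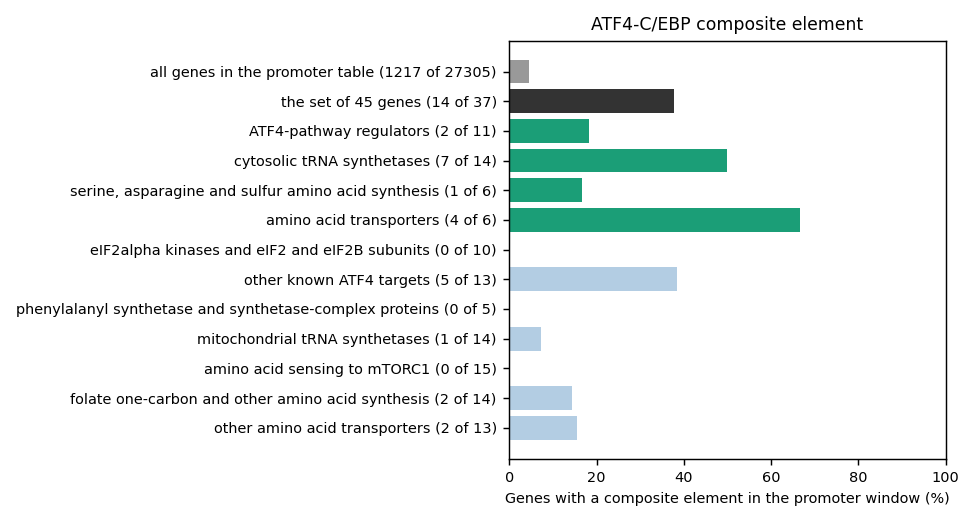
Share of genes (horizontal axis, %) whose RefSeq promoter window holds the composite element, with the numbers of genes in brackets. The 45 genes (dark bar, 14 of 37) stand beside all genes of the table (grey, 1217 of 27305), their 4 groups (green) and the related lists (blue).

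Expression is given as FPKM (fragments per kilobase of transcript, normalised to the mapped fragments of a library) divided by a scaling factor per library, 0.9899 to 1.02, and is called scaled FPKM. Depth is not given as a count and was estimated from the steps of low values. The estimates were about 2400000 and 2300000 fragments for the vehicle libraries and about 4400000 and 3300000 for the A7 libraries. The search ran within a range fixed beforehand that left out high depths, so it cannot show by itself that depth was low. The 8952 genes whose FPKM averaged at least 1 were tested with limma on log2(scaled FPKM + 1), A7 minus vehicle, and differences below are on that scale, which understates the change of low genes. Over all tested genes 2 passed at an adjusted p under 0.05 (0.0223%), 1 higher and 1 lower (0.0112% each). The groups did not overlap in 36.9% of genes, an unadjusted p under 0.05 was reached by 5.76%, and 50.3% had a lower mean with A7. The median difference of all tested genes was -0.0019, and it shifted to 0.17 when FPKM were rescaled to TPM, so a direction is given below with its value under that scaling where it turns. All 10 luminal markers averaged at least 1 scaled FPKM, with KRT18 at 172 to 315 and ESR1 at 4.28 to 5.36. Their sum was 77134 and 81031 in vehicle and 36509 and 36017 in A7 libraries, nearly all of it TFF1, an estrogen-induced secreted protein (means 77830 and 35195, difference -1.14, limma adjusted p = 0.0857). Of the 7 basal markers ACTA2 lay at 11.1 to 14.6, TP63 at 0.547 to 1.46 and MYLK at 0.401 to 1.28, while KRT5, KRT14 and KRT17 were listed at 0 in every library. Among immune markers CD68 lay at 3.47 to 4.15 and LYZ at 0.405 to 1.38, with PTPRC, CD3E and CD14 at 0, and the endothelial CDH5, KDR and CLDN5 were at 0. The 8 fibroblast markers summed to 0.416 and 0.421 with vehicle, 11.2 in A7 replicate 1 and 0.963 in A7 replicate 2, with DCN at 8.40 in A7 replicate 1 and PDGFRB at 0 throughout. The part of TFF1 and of the fibroblast markers in the results was not tested, and list medians without that library are given below. In bulk RNA, a change in the make-up of the cells and a change per cell cannot be told apart.

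Most of the machinery was expressed at moderate to high level, and none of it passed the test. Of the 45 genes 40 reached the minimum, and 0 of these passed in limma (0.0112% of all tested genes did in either single direction), with 1 (KARS, 2.5% of the 40) at an unadjusted p under 0.05. The smallest adjusted p among them was 0.806. Their means were lower with A7 in 28 and higher in 12, with a median difference of -0.12. The groups did not overlap in 9 of the 40 (22.5%), 8 of them lower and 1 higher, where all tested genes gave 36.9% in either direction and 18.6% lower. With TPM 16 were lower and 24 higher (median 0.095, which is -0.080 beside that of all genes), and quantile normalization gave 27 and 13 (median -0.055). Lower means were thus 40% of the 40 against 21.7% of all genes with TPM, and 67.5% against 48.2% after quantile normalization. The difference between groups exceeded both replicate differences in 6 of the 40 genes (15.0%), against 24.6% of all tested genes. The 5 genes under the minimum were CHAC1, PPP1R15A, SESN2, VLDLR and VARS.

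**Figure D2:**
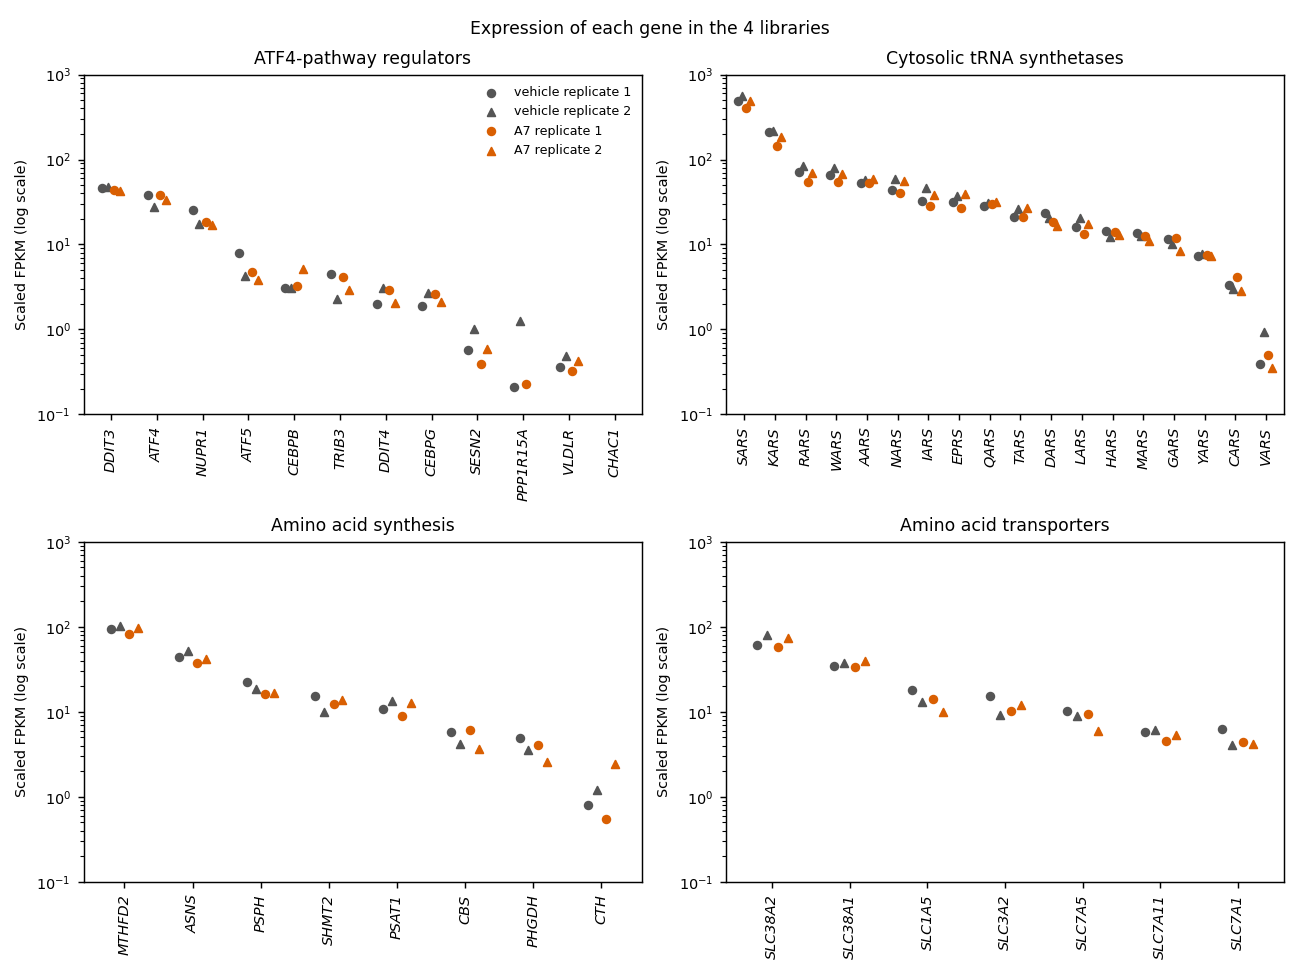
Scaled FPKM (vertical axis, log scale) of each gene in the 4 libraries, by group and ordered by mean level. Grey symbols are vehicle and orange symbols A7, circles replicate 1 and triangles replicate 2. CHAC1, listed at 0 in all libraries, and PPP1R15A in A7 replicate 2 have no point. SARS and KARS lie highest, and the symbols of both treatments intermingle for most genes.

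Among the regulators, ATF4 and its partner DDIT3 were well expressed in both treatments and several of their stress targets were low or listed at 0. ATF4 stood at 38.2 and 27.3 scaled FPKM in vehicle cells against 38.3 and 33.3 in A7-treated cells. A7 replicate 1 matched the higher vehicle library and A7 replicate 2 lay between both, and the difference was 0.14 (SE 0.20, limma adjusted p = 0.908), negative without vehicle replicate 2 (-0.094). The pseudogenes ATF4P3 and ATF4P4 are near-identical copies, and how reads were shared among copies is not given in the sources used here. DDIT3, which encodes the stress-induced factor CHOP, stood at 46.1 and 47.3 in vehicle cells against 43.4 and 42.8 in A7-treated cells. Both A7 values were below both vehicle values by a small margin, 1.08-fold in the means (difference -0.11, SE 0.13, adjusted p = 0.886), and the sign turned with TPM (0.11). Its exons share 62 bases with MARS on the opposite strand. Larger overlaps of this kind were found for DDIT4 (847 bases with DDIT4-AS1) and VLDLR (738 with VLDLR-AS1). ATF5 shares 563 with NUP62 and CEBPB 231 with CEBPB-AS1, also on opposite strands. NUPR1, a stress-induced chromatin protein, stood at 25.7 and 17.5 in vehicle cells against 18.3 and 17.1 in A7-treated cells, and vehicle replicate 1 alone was high. ATF5, a bZIP factor translated like ATF4, showed the same arrangement, at 7.91 and 4.20 against 4.68 and 3.86. Without vehicle replicate 1 the differences of NUPR1 and ATF5 were 0.012 and 0.015, in place of -0.25 and -0.37.

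CEBPB, a C/EBP partner of ATF4, was the only one of the 40 genes higher with A7 without overlap. It stood at 3.04 and 3.07 in vehicle cells against 3.27 and 5.09 in A7-treated cells. The vehicle libraries were nearly equal and A7 replicate 2 lay apart from the other 3 (difference 0.33, SE 0.23, limma adjusted p = 0.820), and without that library the difference was 0.075. CEBPG, the partner whose promoter window holds the element, stood at 1.90 and 2.65 against 2.64 and 2.12, with overlap. TRIB3, a pseudokinase induced by ATF4 and CHOP, stood at 4.47 and 2.26 in vehicle cells against 4.12 and 2.89 in A7-treated cells. DDIT4, an inhibitor of mTORC1, stood at 2.00 and 3.05 against 2.90 and 2.07. In both genes the replicates of a group differed more than the groups did. CHAC1, a glutathione-degrading enzyme, was listed at 0 in every library although its promoter window holds the element. PPP1R15A, the phosphatase subunit that reverses eIF2alpha phosphorylation, was listed at 0.209 and 1.26 in vehicle cells against 0.229 and 0 in A7-treated cells. By the depth estimate, these correspond to about 1, 7, 2 and 0 fragments, too few to show a difference. SESN2, a leucine sensor, lay at 0.391 to 1.02 and VLDLR, a lipoprotein receptor, at 0.327 to 0.484, on at most about 9 fragments a library. Of the 8 tested regulators 4 were higher and 4 lower, with a median of 0.022. Under TPM 6 were higher and 2 lower, with a median of 0.17, or -0.0064 beside that of all genes. The median was -0.0085 after quantile normalization. It was -0.12 without A7 replicate 1, -0.094 without vehicle replicate 2 and 0.12 without A7 replicate 2.

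The synthetase mRNAs spanned from SARS, at a mean of 487 scaled FPKM, down to VARS, below 1, and several of the most abundant had lower means with A7. SARS, which charges serine tRNA, stood at 491 and 559.6 in vehicle cells against 409 and 489 in A7-treated cells. The closest values of the 2 groups nearly touched (means 525 ± 48.6 and 449 ± 56.4, SD, n = 2 each), and the difference was -0.23 (SE 0.15, limma adjusted p = 0.806). KARS, which charges lysine tRNA, was second, at 209.8 and 218 against 143 and 183. Its A7 libraries were both below the vehicle pair but differed more from each other, and the means were 1.31-fold apart. The difference was -0.40 (SE 0.16, 95% interval -0.79 to -0.019, limma adjusted p = 0.806), -0.18 with TPM and -0.23 without A7 replicate 1. RARS, for arginine, stood at 71.3 and 84.0 in vehicle cells against 54.5 and 69.8 in A7-treated cells, narrowly without overlap (difference -0.32, SE 0.18, limma adjusted p = 0.806), with -0.15 without A7 replicate 1 and -0.50 on leaving out A7 replicate 2. DARS, for aspartate, stood at 23.4 and 20.5 against 18.5 and 16.6, with both A7 values below both vehicle values (difference -0.31, SE 0.16, limma adjusted p = 0.806). KARS, RARS and DARS kept a negative difference under the TPM rescaling, at -0.18, -0.10 and -0.096. That of SARS shrank to -0.0045 with TPM and to -0.0037 after quantile normalization.

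Next in level after SARS, KARS and RARS came WARS (tryptophan), at 66.1 and 79.1 in vehicle cells against 54.3 and 67.2 in A7-treated cells. AARS (alanine) followed, at 53.2 and 58.0 against 53 and 59.6. AARS differed by 0.016 with a 95% interval of -0.33 to 0.36, which leaves room for change in either direction. NARS (asparagine), IARS (isoleucine), EPRS (glutamate and proline) and QARS (glutamine) had means between 29.7 and 51.2 in either group. IARS stood at 32.3 and 46.5 against 28.1 and 38.7, and NARS at 43.8 and 58.6 against 39.9 and 55.6. In both, replicate 2 was the higher library of each group and the groups overlapped. TARS (threonine), LARS (leucine), HARS (histidine), MARS (methionine) and GARS (glycine) had means of 10.1 to 24.1, with differences from -0.25 (LARS) to 0.037 (TARS). YARS (tyrosine) averaged 7.5 and 7.41, and CARS (cysteine) 3.14 and 3.50. VARS (valine) was listed at 0.394 and 0.929 in vehicle cells against 0.497 and 0.354 in A7-treated cells, on about 4 to 9 fragments a library. Neighbours in this order, such as WARS and RARS or MARS and HARS, had overlapping ranges.

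Of the 17 tested synthetases 12 had lower means with A7 and 5 higher, with a median of -0.12, and 4 did not overlap (23.5%), all lower, where 18.6% of all tested genes were lower without overlap. Under TPM the median was 0.083 (-0.091 beside that of all genes), with 7 lower and 10 higher (EPRS, GARS, MARS, NARS and YARS turned), and was -0.018 after quantile normalization. Leaving out A7 replicate 1 gave -0.065 and leaving out A7 replicate 2 gave -0.24, and it was -0.19 without vehicle replicate 1 and -0.081 without vehicle replicate 2. Of the synthetases, 8 are held with scaffold proteins in the multi-synthetase complex, a grouping made here after the values were seen. The 8 in the complex (EPRS, LARS, IARS, QARS, MARS, KARS, RARS and DARS) had a median of -0.24, with 7 lower, and the 9 tested outside it a median of -0.015, with 5 lower. With TPM these medians were -0.021 and 0.18, or -0.20 and 0.0032 beside that of all genes. The difference between the 2 subsets was not tested.

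**Figure D3:**
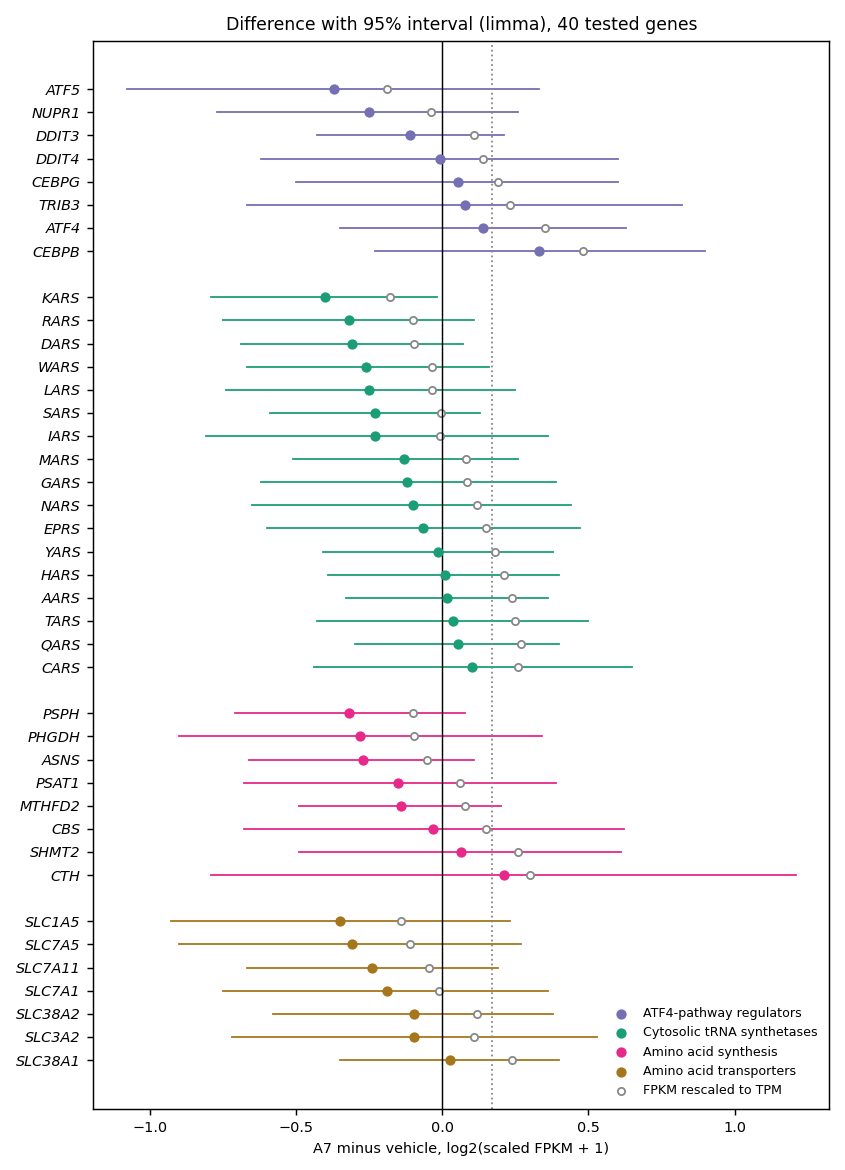
Difference of A7 minus vehicle for the 40 tested genes (horizontal axis, log2(scaled FPKM + 1)), with the 95% interval from limma, coloured by group. Open circles give the same difference after rescaling to TPM, and the dotted line the median of all tested genes under that scaling (0.17). The intervals include 0 except that of KARS, and the largest negative values are those of KARS, ATF5 and SLC1A5.

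The mRNAs of the phenylalanine synthetase and of scaffold proteins of the complex had lower means throughout (3 of 5 under TPM), although none passed the test. This list of 5 comprises both subunits of the phenylalanine synthetase and 3 scaffold proteins of the complex. All 5 were lower without overlap (18.6% of all tested genes were), with a median difference of -0.41 (-0.20 with TPM and -0.36 after quantile normalization). AIMP2, a scaffold protein, stood at 35.3 and 34.4 scaled FPKM in vehicle cells against 26.3 and 24.8 in A7-treated cells. Both pairs were tight, and the difference was -0.43 (SE 0.14, 95% interval -0.77 to -0.097, limma adjusted p = 0.806). FARSB, the beta subunit of the phenylalanine enzyme, stood at 88.1 and 97.7 against 56.7 and 77.6, and FARSA, its alpha subunit, at 11.1 and 9.17 against 8.31 and 6.53. AIMP1 was nearly level, at 44.1 and 45.2 against 43.0 and 42.1, and turned with TPM (0.15), as did EEF1E1 (0.051), at 81.3 and 82.8 against 66.8 and 79.3. Of the 13 tested mitochondrial synthetases 9 had lower means (median -0.11). Under TPM 3 were lower (23.1%, against 21.7% of all tested genes) and 10 higher. The TPM median was 0.077, which is -0.098 beside that of all genes. HARS2, the mitochondrial histidine enzyme, was higher without overlap, at 5.14 and 4.78 against 6.96 and 6.44 (limma adjusted p = 0.806). It shares 402 exon bases on opposite strands with HARS. No strand-marking step is named in the labels' protocols, so whether their reads were told apart there is not known. YARS2, for tyrosine, stood at 2.43 and 4.26 against 2.31 and 0.632.

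The libraries differed in the synthetases in a way that ran across the treatments. Replicate 2 was higher than replicate 1 in both groups for 11 of the 17 tested synthetases (64.7%) and lower in both for 5 (29.4%). Over all tested genes these shares were 30.6% and 28.5%. Around the 4-library mean of each gene, the vehicle libraries had synthetase medians of -0.0026 and 0.14, and the A7 libraries -0.14 and 0.015. A7 replicate 2 therefore lay between the vehicle libraries, and A7 replicate 1 lay lowest. Among the regulators the order differed, with 0.10 and -0.15 for vehicle, then 0.046 and -0.12 for A7. The median absolute difference between replicates was 0.189 (vehicle) and 0.321 (A7) for the synthetases, against 0.119 between the groups, whose means of 2 libraries vary less than single libraries. Over all tested genes these values were 0.224, 0.201 and 0.166. The replicate numbers come from the titles, which do not say what they share.

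**Figure D4:**
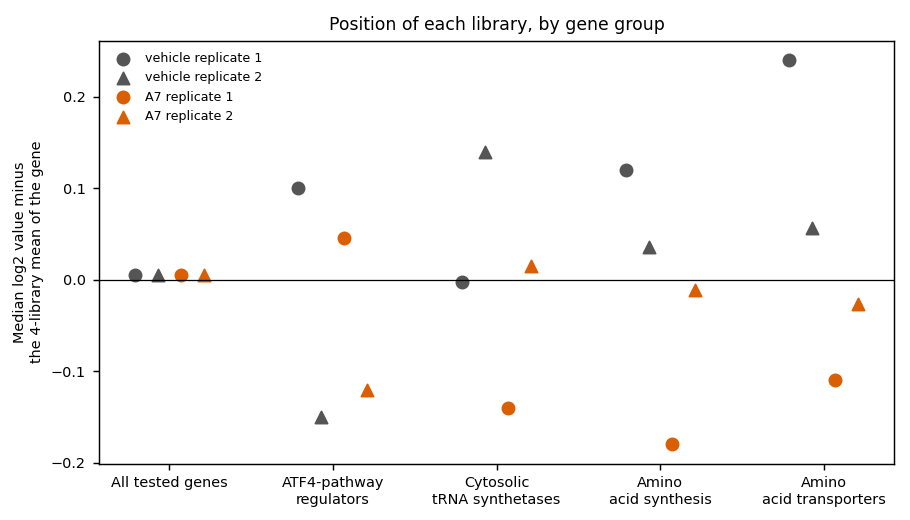
Median position of each library (vertical axis, log2 value minus the gene's mean over the 4 libraries) for all tested genes and the 4 groups. For synthetases, A7 replicate 2 (0.015) lies between the vehicle libraries (-0.0026 and 0.14). For enzymes and transporters both A7 medians lie below both vehicle medians, although under TPM the median difference of the enzymes is 0.069.

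**Figure D5:**
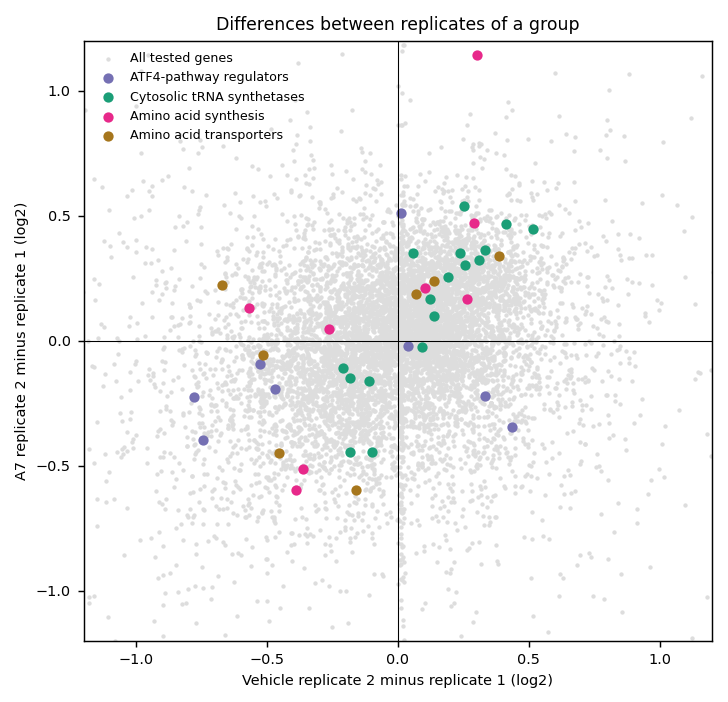
Replicate 2 minus replicate 1 with vehicle (horizontal axis) and with A7 (vertical axis), in log2 units, for all tested genes (grey) and the 40 tested genes of the set (coloured by group). The axes end at 1.2 either way, which leaves out some grey points. Most synthetases (green) lie in the upper right or lower left, that is, 11 and 5 of 17.

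Enzymes that make serine and asparagine had slightly lower means with A7, except that PSAT1 turned under TPM (0.061). ASNS stood at 43.7 and 52.6 scaled FPKM in vehicle cells against 37.2 and 41.9 in A7-treated cells. Both A7 values were below both vehicle values, 1.22-fold in the means, and the difference was -0.27 (SE 0.16, limma adjusted p = 0.806), -0.053 with TPM, -0.14 without vehicle replicate 2 and -0.40 without vehicle replicate 1. PSPH, the phosphatase that completes serine synthesis, stood at 22.7 and 18.7 against 16 and 16.6, also without overlap (difference -0.32, SE 0.16, limma adjusted p = 0.806). PHGDH, which opens serine synthesis, stood at 4.86 and 3.55 against 4.09 and 2.57 and overlapped, as did PSAT1, the transaminase between them, at 10.7 and 13.3 against 8.90 and 12.7. In the serine route, the first enzyme was thus the least abundant mRNA and PSPH the most abundant, in FPKM, which corrects for length.

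MTHFD2, a mitochondrial folate enzyme, was the most abundant of the 8, at 95.4 and 102 in vehicle cells against 82.9 and 96.2 in A7-treated cells. The difference was -0.14 (SE 0.14, limma adjusted p = 0.866) and turned with TPM (0.078) and after quantile normalization (0.0004). SHMT2, which makes glycine from serine in mitochondria, stood at 15.3 and 9.96 in vehicle cells against 12.3 and 13.6 in A7-treated cells, so both A7 values fell between the vehicle values. CBS, the first enzyme from homocysteine to cysteine, stood at 5.72 and 4.14 against 6.07 and 3.68. CTH, the second, was listed at 0.792 and 1.21 against 0.549 and 2.42, on about 3 to 15 fragments a library. The sign of CBS turned under TPM (0.15). In CBS and CTH the A7 replicates lay on either side of the vehicle pair. Of the 8 enzymes 6 had lower means, with a median of -0.15 (-0.12 on leaving out A7 replicate 1 and -0.30 on leaving out A7 replicate 2), and 0.069 with 3 lower and 5 higher under TPM (-0.11 beside that of all genes). Copies and overlaps may limit this group. ASNS shares sequence with the transcript AC079781.5, PSAT1 with the pseudogene PSAT1P3 and CBS with CBSL. MTHFD2 shares 1324 exon bases with SLC4A5 on the opposite strand, and SHMT2 shares 427 with AC137834.2. These were found in a later genome build than the one named in the processing notes. Whether CBSL and the other copies were present in that earlier build, and so could take reads, was not tested.

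The transporters had lower means with A7 in 6 of 7 genes (4 of 7 under TPM), again with none past the test. SLC38A2, a sodium-coupled carrier of small neutral amino acids, stood at 60.7 and 79.6 scaled FPKM in vehicle cells against 57.7 and 73.1 in A7-treated cells. SLC38A1, its close relative, stood at 34.4 and 37.9 against 33.8 and 40.1, with the A7 values on either side of the vehicle pair. The difference of SLC38A2 was -0.097 (SE 0.19, limma adjusted p = 0.942) and turned with TPM (0.12) and after quantile normalization (0.016). SLC1A5, a glutamine carrier whose promoter window holds the element, stood at 18.2 and 13.0 against 14.0 and 10. Replicate 2 was the lower library of both groups, and the difference was -0.35 (SE 0.24, limma adjusted p = 0.817), -0.14 with TPM. It was -0.12 without vehicle replicate 1 or A7 replicate 2, and -0.57 without either of the other libraries. The exons of SLC1A5 share 780 bases with AC008622.2 on the opposite strand. SLC7A5, the light chain of the leucine carrier LAT1, stood at 10.2 and 9.01 against 9.48 and 5.92, with A7 replicate 2 low. Without that library its difference was -0.014, in place of -0.31.

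SLC3A2, the heavy chain shared by LAT1 and the cystine carrier, stood at 15.4 and 9.30 against 10.3 and 12.1, inside the vehicle range, and its difference of -0.096 turned with TPM (0.11). SLC7A11, the light chain of the cystine carrier, stood at 5.86 and 6.19 in vehicle cells against 4.58 and 5.34 in A7-treated cells. It was the only transporter of the 7 without overlap, 1.21-fold lower in the means (difference -0.24, SE 0.17, limma adjusted p = 0.823, and -0.047 with TPM). SLC7A1, a carrier of arginine and lysine, stood at 6.23 and 4.05 against 4.40 and 4.19. Vehicle replicate 1 was again the high library, and without it the difference was 0.067, in place of -0.19. The median of the 7 was -0.19, with -0.15 without A7 replicate 1, -0.39 without vehicle replicate 2, and -0.011 with TPM (-0.19 beside that of all genes).

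Genes with and without the composite element had nearly equal medians, except after quantile normalization. The 13 tested genes with the element had a median difference of -0.10, with 8 lower, and the 20 tested genes in the promoter table without it a median of -0.11, with 14 lower. With TPM these medians were 0.11 and 0.12, and after quantile normalization -0.099 and -0.0086. Of the 13, 1 did not overlap between treatments (ASNS, 7.69%), and of the 20, 5 did not (25.0%), against 36.9% of all tested genes. The difference between these classes was not tested.

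Upstream of ATF4, the genes of eIF2, its kinases and its exchange factor had no common direction. Of 12 tested 5 had higher and 7 lower means (median -0.073). Under TPM 8 were higher and 4 lower (33.3%, against 21.7% of all tested genes). The TPM median was 0.14, or -0.03 beside that of all genes. EIF2S1, which encodes eIF2alpha itself, stood at 118 and 148 scaled FPKM in vehicle cells against 86.1 and 110.0 in A7-treated cells, without overlap (difference -0.44, SE 0.18, limma adjusted p = 0.806). EIF2B3, a subunit of the exchange factor, stood at 30.3 and 32.0 against 24.8 and 21.9, also without overlap (difference -0.40, SE 0.15, limma adjusted p = 0.806). Of the 20 other ATF4 targets listed, 12 were tested, 6 higher and 6 lower, with a median of 0.036. GDF15, a secreted stress cytokine that p53 also induces, stood at 2.25 and 0.761 in vehicle cells against 4.85 and 4.01 in A7-treated cells. Both A7 values were above both vehicle values, 2.95-fold in the means, and the difference was 1.18 (SE 0.32, 95% interval 0.38 to 1.97, limma adjusted p = 0.806), similar with TPM (1.22). The vehicle values of GDF15 were low and differed by -0.88 (replicate 2 minus replicate 1, same log2 scale). Its fragment numbers were not estimated, so this fold is uncertain. MTHFD1L, a mitochondrial folate enzyme, stood at 4.34 and 4.80 against 3.71 and 2.90.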

How the data were processed

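The authors deposited 1 table per library with gene symbols and FPKM, per the file headers. Per the submitters' processing notes, which assign no roles, the tools were CASAVA 1.8.2, TopHat and Cufflinks 2.2.1 and the build GRCh37; the annotation is not given in the sources used here. No strand-marking step is named in the labels' protocols. On 14 of 23619 lines the symbol was a number and the line was left out. Count models were not used because FPKM are normalised values. Scaling factors were median ratios to a geometric-mean reference library over 8802 genes. The 8952 genes whose FPKM averaged at least 1 entered a limma fit (version 3.58.1, R 4.3.3, eBayes with trend, 2 residual and 3.89 prior degrees of freedom, two-sided, Benjamini-Hochberg over all of them, threshold 0.05) on log2(scaled FPKM + 1), and the script was tested on simulated data. A 2 against 2 permutation test cannot give a p below 0.333, so none was used. The members and lists were chosen with earlier results of these data known. Values by library are given for ATF4, DDIT3, ASNS, SLC7A11, and in each group for the 4 genes with the smallest p and the 2 most abundant, and for 2 genes per related list. Other genes named with values were chosen as members or after their values were seen. Depth was estimated from ratios of low FPKM between libraries and GENCODE 29 transcript lengths. The depth of vehicle replicate 1 was searched only within a range fixed beforehand that left out high depths. All fragment numbers rest on it, are rough and cover counting only. GENCODE 29 (GRCh38) served for lengths, exon overlaps and, with blastn 2.17.0, near-identical copies (95% identity over 50% of the transcript). Exons of 18 of the 45 genes overlap a gene on the opposite strand, and 4 have such a copy. That of ASNS is a transcript that overlaps it on the same strand. Promoter sequences and their coordinates are RefSeq's (GRCh38.p14), matched by current symbol. Alternatives were TPM, quantile and no scaling, a pseudocount of 0.1, no filter or a minimum of 5, no variance trend, the replicate number as a block, and each library left out.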

Additional observations from a re-analysis of the deposited data

How the results depend on the processing

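No member passed under any of the 12 alternatives, and the lowest adjusted p of a member was 0.492. Of the 19 members named by rule, 3 reversed with another scaling: with TPM, DDIT3 (0.11), MTHFD2 (0.078) and SLC38A2 (0.12), and after quantile normalization, MTHFD2 (0.0004) and SLC38A2 (0.016). Leaving out single libraries reversed 6, with ranges of -0.094 to 0.37 for ATF4, -0.76 to 0.015 for ATF5, -0.51 to 0.012 for NUPR1, -0.45 to 0.067 for SLC7A1, -0.093 to 0.15 for SLC38A1 and -0.29 to 0.096 for SLC38A2. The TPM rescaling moved the medians of synthetases, enzymes and transporters to 0.083, 0.069 and -0.011, and a minimum of 5 moved that of the regulators to -0.18. Leaving out libraries gave medians of -0.24 to -0.065 for synthetases, -0.30 to -0.12 for enzymes, -0.39 to -0.12 for transporters and -0.12 to 0.12 for regulators. Over all genes, 1 higher and 1 lower gene passed. No filter or the replicate block gave 0 and 0, no variance trend 0 higher, a pseudocount of 0.1 0 lower, TPM or quantile normalization 2 lower and a minimum of 5 gave 3 lower. Leaving out libraries gave 1 to 10 higher and 0 to 7 lower (higher: 10 without A7 replicate 1, 9 without A7 replicate 2 and 2 without vehicle replicate 2; lower: 6 and 7 without vehicle replicate 1 and 2, 0 and 2 without A7 replicate 1 and 2). The lone library of a group is then assumed to vary like the other genes and groups do. Leaving out 1 library moved SARS between -0.36 and -0.10, DARS between -0.40 and -0.22, PSPH between -0.45 and -0.19, PHGDH between -0.53 and -0.021, MTHFD2 between -0.25 and -0.039 and SLC7A11 between -0.33 and -0.15. The causes were not tested. What replicates of the same number share is not stated in the titles. The correlation of their deviations across 8952 genes was 0.0906, and the replicate block called 0 members. The replicate differences had the same sign in both groups for 16 of the 17 tested synthetases. Over all tested genes, replicate 2 was higher in both groups for 30.6% and lower in both for 28.5%. Synthetases may vary together, so their count is not one of independent observations. By the depth estimate, low counts limit CHAC1, PPP1R15A, SESN2, VLDLR, VARS and CTH, each with under 40 estimated fragments in all.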

Other observations

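The amino acid transporters outside the 7 described mostly had higher means with A7. Of 8 tested 6 were higher and 2 lower, with a median difference of 0.29 (0.26 after quantile normalization, and 0.44 with TPM, or 0.27 beside the median of all genes), and 5 were higher and 1 lower without overlap, where 18.3% and 18.6% of all tested genes were. SLC6A6, the taurine carrier, stood at 3.85 and 3.71 scaled FPKM in vehicle cells against 5.24 and 5.08 in A7-treated cells, with tight pairs (difference 0.37, SE 0.17, limma adjusted p = 0.806). SLC38A7, a lysosomal carrier, stood at 1.04 and 1.23 against 1.69 and 2.14. SLC7A2, SLC7A6 and SLC7A8, chosen after their values were seen, were also higher without overlap, with SLC7A2 at 11.5 and 11.4 against 14.4 and 13.9. None of the 8 passed, 0 reached an unadjusted limma p under 0.05, and the other 8 listed transporters lay under the FPKM minimum.

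Genes that sense amino acids for mTORC1 went both ways, with 4 of 11 tested higher and 7 lower (median -0.096). Under TPM 8 were higher and 3 lower (27.3%, against 21.7% of all tested genes). The TPM median was 0.11, or -0.06 beside that of all genes. MLST8, a subunit of mTOR complexes, stood at 3.83 and 2.12 in vehicle cells against 1.68 and 1.40 in A7-treated cells. RRAGC, a Rag GTPase that recruits mTORC1 to lysosomes, stood at 4.37 and 5.23 against 6.47 and 6.28. Other enzymes of folate and amino acid synthesis had 11 higher and 7 lower means of 18 tested (median 0.016). Under TPM 16 were higher and 2 lower (11.1%, against 21.7% of all tested genes). Their TPM median was 0.19, or 0.02 beside that of all genes. In the urea cycle pair ASS1 stood at 108 and 111 against 88.0 and 100.4, and ASL at 0.945 and 0.320 against 1.53 and 1.27, and the difference of ASS1 turned from -0.22 to 0.0056 under TPM (ASL 0.59). The vehicle values of ASL were low and differed by -0.56 (replicate 2 minus replicate 1, log2), and its fragment numbers were not estimated. None of these genes passed (limma adjusted p = 0.806 for each of the 4 named).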
